A study of Drosophila melanogaster with 185 samples.

Results

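The genes described here are the translation initiation factors and the tRNA synthetases of Drosophila melanogaster, taken as every gene whose symbol in the deposited counts begins with eIF, in any case, or with Aats-, the older symbol for an aminoacyl-tRNA synthetase. The rule gave 50 of the 15682 genes counted, 29 initiation factor genes and 21 synthetase genes. They were followed across 101 RNA-seq libraries: 72 libraries of neurons harvested from the mushroom body circuit, 27 of whole flies and 2 of brains. The 7 neuron classes were gamma Kenyon cells (NP1131-GAL4), alpha/beta Kenyon cells (c739-GAL4) and the 5 output neuron classes V2 (R71D08-GAL4), DAL (G0431-GAL4), V3 (CG0239-GAL4), 3-86 (3-86-GAL4) and R27G01 (R27G01-GAL4). All flies shared the w1118 background, and every class was marked by a GAL4 driver crossed to a UAS-eGFP reporter, so a class is the set of GFP-positive cells picked at one place in the brain.

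Trained flies received an odour paired with electric shock, in 8 blocks with rests of 10 min, each block holding 12 shocks of 5 s at 60 V. Control flies received the shock first and the odour afterwards. Cells were drawn into a patch pipette soon after training, and the cDNA was amplified before sequencing. Control and trained libraries numbered 6 and 6 for gamma, 6 and 6 for alpha/beta, 5 and 5 for V2, DAL and V3, 6 and 4 for 3-86, and 4 and 4 for R27G01. The untrained whole flies carried the same 7 drivers with the reporter (24 libraries, 3 or 4 per driver) or the reporter background alone (3 libraries). The brains carried the reporter background. A Kenyon cell library held more than 100 cells, a V2 library 12 cells and a library of the other 4 classes 4 cells, so cell class and cell number cannot be told apart in comparisons between them.

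Initiation begins when eIF2, with GTP, carries the initiator tRNA to the small ribosomal subunit, and eIF2B recharges eIF2 with GTP after each round. eIF4E binds the cap of the mRNA, eIF4G bridges it to the helicase eIF4A and to eIF3 on the ribosome, and eIF1A, eIF5 and eIF5B govern the choice of start codon and the joining of the large subunit. Aminoacyl-tRNA synthetases load each tRNA with its amino acid, with separate enzymes for the cytosol and for mitochondria in most cases. Long-term memory requires new protein synthesis in many animals, flies among them.

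Levels are given as counts per 1000000 gene counts of a library (CPM), with the runs of a library summed. Control neuron libraries held 3.83 to 22.9 M counts (M, 1000000), whole flies of the 7 drivers 0.932 to 8.72 M, reporter flies 9.79 to 16.2 M and brains 1.33 to 2.27 M. The neuronal identity of the harvest showed in 8 neuron markers, whose summed level was 3334 to 41395 CPM in control neurons and 193 to 862 CPM in driver flies. The 9 Kenyon cell markers summed to 16523 to 28554 CPM in control Kenyon cells. Fat body markers, led by the yolk proteins, were present in control neuron libraries at 12.2 to 71329 CPM. Over all 72 neuron libraries they reached 134076 CPM. Among the gamma control libraries 1 stood apart with 17474 CPM of heat-shock genes. In 3-86, control library 3 and trained library 2 were each made of runs that differed beyond sampling noise. A control library of alpha/beta was a pair that differed by less than the sampling noise and was counted as 1.

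Single control libraries held counts for 42 to 48 of the 50 members in Kenyon cells, 29 to 44 in the 4-cell classes and 42 to 46 in driver flies. eIF-4B, which encodes a cofactor of the eIF4A helicase, had no count in any of the 101 libraries, whole flies included. Whether its reads could be counted with the annotation used was not tested, so no level is given for it. The other gene symbols starting with eIF4E belong to paralogs of the cap-binding protein, several of them known from the testis. eIF4E-3 had counts in 12 libraries of 101, eIF4E-4 in 14, eIF4E-5 in 14, eIF4E-6 in 26 and eIF4E-7 in 2. The highest eIF4E-6 level among control neurons, 49.2 CPM, was 1 library of 3-86, and the median over the 37 control neuron libraries was 0. Limits from a count of 0 cover counting error only.

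Per kilobase of coding sequence, a few factors held most of the signal. In control neurons the mean level was 1639 CPM per coding kb for eIF-5A, the elongation and termination factor that carries hypusine, 925 for the helicase eIF-4a, 846 for eIF-1A, 471 for the cap-binding protein eIF-4E and 215 for eIF5, the GTPase activator of eIF2. No synthetase came within the first 10 places: the highest was Aats-lys, the lysyl enzyme, at 41.5 CPM per coding kb. Whole flies had the same leading 4 genes, at 5037 for eIF-5A, 3140 for eIF-4a, 1258 for eIF-4E and 834 for eIF-1A, but eIF5 stood at 83.4 CPM per coding kb there, in place 12 rather than 5.

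**Figure D1:**
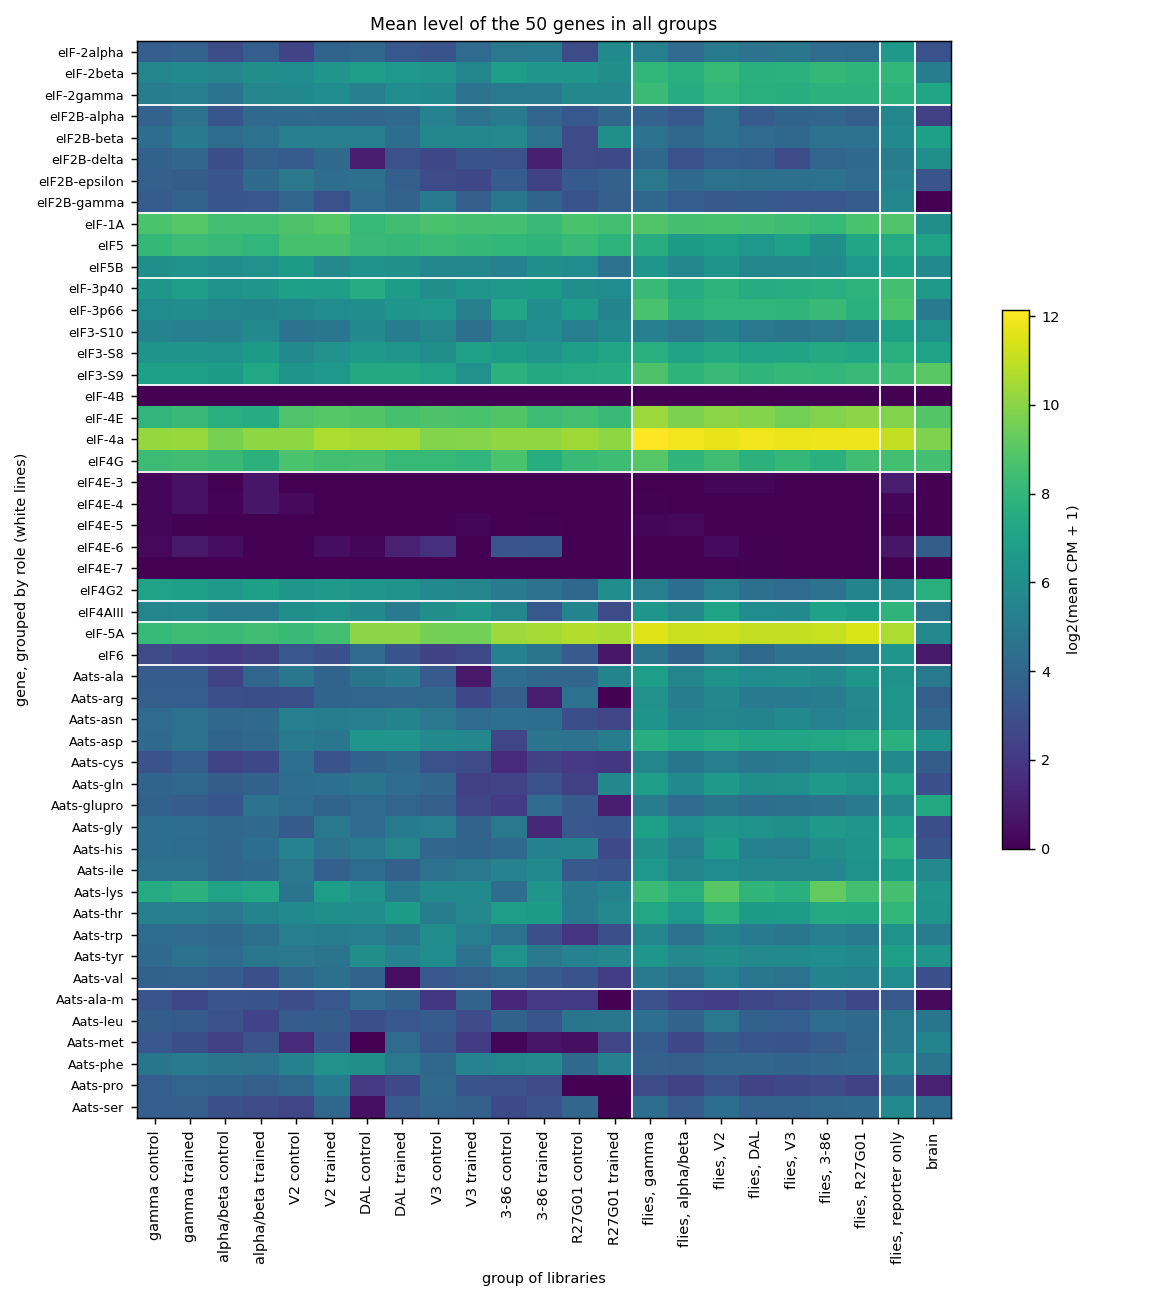
Mean level of the 50 genes (rows, ordered by role) in each group of libraries (columns), as log2 of mean CPM plus 1 shown by colour. eIF-4a and eIF-4E are bright in every column, eIF-5A and eIF-1A in every column but the brain, most eIF4E paralogs are near 0, and eIF-4B is at 0 throughout.

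The first comparison was between neurons and flies carrying their drivers, and asked how the machinery in these cells differs from that of the body. Most of the machinery took a smaller share of the mRNA of neurons, while the start-site factor eIF5 took a larger one. The initiation factors summed to 2383 to 6169 CPM in the 37 control neuron libraries (median 3984) and to 6543 to 13163 CPM in the 24 driver flies (median 9473). These ranges did not overlap. The synthetases summed to 176 to 996 CPM in neurons (median 379) and 615 to 1883 CPM in flies (median 1412), with ranges that overlapped. Of the 45 members with enough counts to test, 27 fell in neurons, against a background of 34.3% of all 10549 genes tested, and 2 rose, against a background of 30.2% (edgeR quasi-likelihood test, Benjamini-Hochberg over all genes, threshold 0.05). The median log2 difference was -1.27 over these members and 0.01 over all genes. eIF4E-6, 1 of these members, had an SE of 6008, so its difference could not be estimated. Fewer cells of a type and less RNA per cell cannot be told apart in such libraries. A p-value here weighs a difference against the scatter of libraries, which may be technical in part, since nothing says which libraries came from separate animals.

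Among the cap-binding group, eIF-4a lay at 528.1 to 2148 CPM in control neurons with a median of 1108, and at 3000 to 4720 CPM in driver flies with a median of 3754. Every control neuron library was below every driver fly library, but the reporter flies, not tested, lay within the upper end of the neuron range. The log2 difference was -1.81 ± 0.11 (SE, adjusted p = 1.30e-22). eIF-4E lay at 130 to 1038 CPM in neurons (median 338) and 417 to 1490 CPM in flies (median 988), a log2 difference of -1.47 ± 0.12 (adjusted p = 3.27e-17). All neuron libraries but 1, from 3-86, were below the fly mean. eIF4G, the scaffold that joins the cap-binding protein and the helicase, had 114 to 666 CPM in neurons (median 323) and 184 to 532 CPM in flies (median 276), and its log2 difference of 0.18 ± 0.12 did not pass (adjusted p = 0.195). Its ranges overlapped almost whole.

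The eIF2 subunits all fell. eIF-2gamma, the subunit that binds GTP and the initiator tRNA, lay at 1.14 to 140 CPM in neurons (median 31.6) and 116 to 326 CPM in flies (median 222). All 37 neuron libraries were below the fly mean, in 7 of 7 classes below the flies of their own driver, although the ranges overlapped at their ends. Its log2 difference was -2.55 ± 0.25 (adjusted p = 7.94e-14). eIF-2beta lay at 22.96 to 258 CPM in neurons (median 53.9) and 122 to 285 CPM in flies (median 257), a log2 difference of -1.76 ± 0.17. eIF-2alpha, whose phosphorylation is the main brake on initiation, was low throughout, at 0 to 66.3 CPM in neurons (median 6.24) and 8.58 to 55.0 CPM in flies (median 24.2), with a log2 difference of -1.48 ± 0.49 (adjusted p = 0.00648), or -2.16 without R27G01 control library 4. None of the 5 subunits of the exchange factor eIF2B passed, and their log2 differences ran from -1.02 ± 0.56 for eIF2B-delta to 0.42 ± 0.48 for eIF2B-gamma.

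Of the 5 genes named for subunits of eIF3, the large platform on the small subunit, 4 fell. eIF-3p66 had 2.45 to 596 CPM in neurons (median 52.3) and 140 to 424 CPM in flies (median 271), a log2 difference of -1.93 ± 0.23 (adjusted p = 7.53e-11). eIF-3p40, eIF3-S9 and eIF3-S8 differed by -1.27 ± 0.18, -1.15 ± 0.13 and -0.98 ± 0.18 on the log2 scale. The exception was eIF3-S10, the largest subunit, at 0.33 ± 0.32 (adjusted p = 0.389). Of the 3 further initiation factor subunits filed under other symbols, Trip1 and Int6 fell, by 1.39 and 1.77 on the log2 scale, and Adam did not pass.

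eIF5 went the other way. It lay at 126 to 520.5 CPM in control neurons with a median of 299, and at 55.6 to 211 CPM in driver flies with a median of 102. All 37 neuron libraries were above the fly mean and all 7 classes above the flies of their own driver, while the ranges overlapped. The log2 difference was 1.39 ± 0.12 (adjusted p = 5.09e-16). Its partners in scanning and subunit joining did not pass: eIF-1A differed by -0.04 ± 0.11 (adjusted p = 0.827), with medians of 387 CPM in neurons and 372 CPM in flies, and eIF5B by -0.09 ± 0.20 (adjusted p = 0.773). In a later annotation of the genome, 80.8% of the exonic bases of eIF5 are shared with CG46312, a gene on the same strand that has no row in these counts, so reads of the pair are not told apart.

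The second gene that rose was eIF4G2, the paralog of the scaffold that in Drosophila is known for its role in male germ cells. It had 0.612 to 184 CPM in neurons (median 68.7) and 10.4 to 50.4 CPM in flies (median 29.7). Of the 37 neuron libraries 29 were above the fly mean, and the log2 difference was 1.11 ± 0.26 (adjusted p = 0.000152). This call depended on how libraries were scaled or combined: with the size factors of DESeq2 it was 0.588 as an adjusted p, with DESeq2 itself 0.518, and with the whole-fly libraries marked A and B summed 0.127. Among the remaining factors, eIF-5A fell by 1.88 ± 0.14 on the log2 scale, the exon junction helicase eIF4AIII by 0.71 ± 0.27 (adjusted p = 0.0205), and eIF6, which keeps the ribosomal subunits apart, by 1.32 ± 0.55 (adjusted p = 0.0304), with -2.33 as its difference without R27G01 control library 2.

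**Figure D2:**
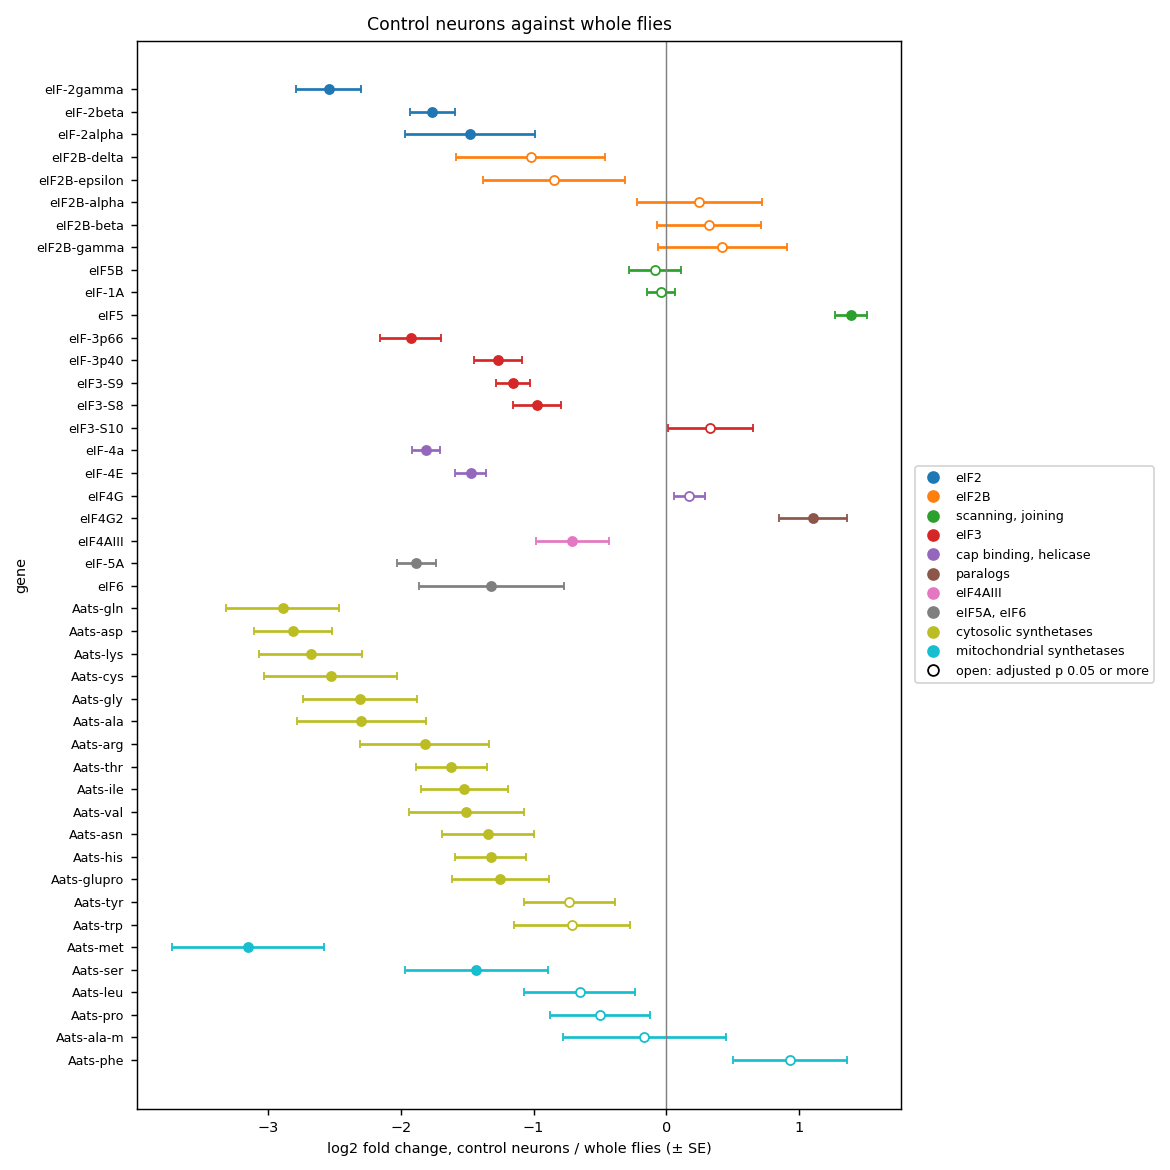
Log2 difference between control neurons and flies with their drivers for 44 of the members tested (points coloured by role, with SE as bars). eIF4E-6, with an SE of 6008, is left out. A value of 0 means no difference after scaling, and filled points passed the test. eIF5 (1.39) and eIF4G2 (1.11) stand on the right of 0 and 27 members that passed stand on the left, from eIF4AIII (-0.71) to Aats-met (-3.15).

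Because flies differ from neurons in so many genes, the scaling of the libraries mattered for every log2 difference of neurons against flies. Under the scaling factors of DESeq2 the median of all genes moved from 0.01 to -0.90, and 1 member rose and 36 fell, while all genes gave 2159 higher and 5118 lower calls in place of 3190 and 3620. Over the 8 settings tried, 36 of the 45 members were below 0 in every one and 35 lay below the median of all genes in every one. The members whose sign changed were eIF2B-alpha, eIF2B-beta, eIF2B-gamma, eIF3-S10 and eIF4G. eIF5 was called higher in all 8 settings, with a log2 difference from 0.47 to 1.39, or 1.22 to 1.44 above the median of all genes.

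Ratios of genes within a library need no scaling, and they were added after the levels had been seen. eIF5 was by then known to be higher in neurons, and eIF-4a and eIF-2gamma to be lower. Higher ratios of eIF5 to them were therefore likely beforehand and are no separate evidence for eIF5. How many other gene pairs separate in this way was not counted. The ratio of eIF5 to eIF-4a was 0.0753 to 0.630 in control neurons, with a median of 0.292, and 0.0147 to 0.0546 in driver flies, with a median of 0.0291. Every neuron library had a higher ratio than every driver fly library. The 3 reporter flies, at 0.0790 to 0.0864, were above every driver fly library and within the lower end of the neuron range, so the lack of overlap holds for driver flies and not for all whole flies. The ratio of eIF5 to eIF-2gamma, the subunit whose GTP eIF5 helps to hydrolyse, was 1.90 to 247 in neurons (median 9.69) and 0.268 to 0.912 in flies (median 0.476), again without overlap. The ratio of the scaffold eIF4G to the cap-binding eIF-4E was 0.237 to 3.04 in neurons (median 0.932) and 0.188 to 0.538 in flies (median 0.312), with overlap.

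**Figure D3:**
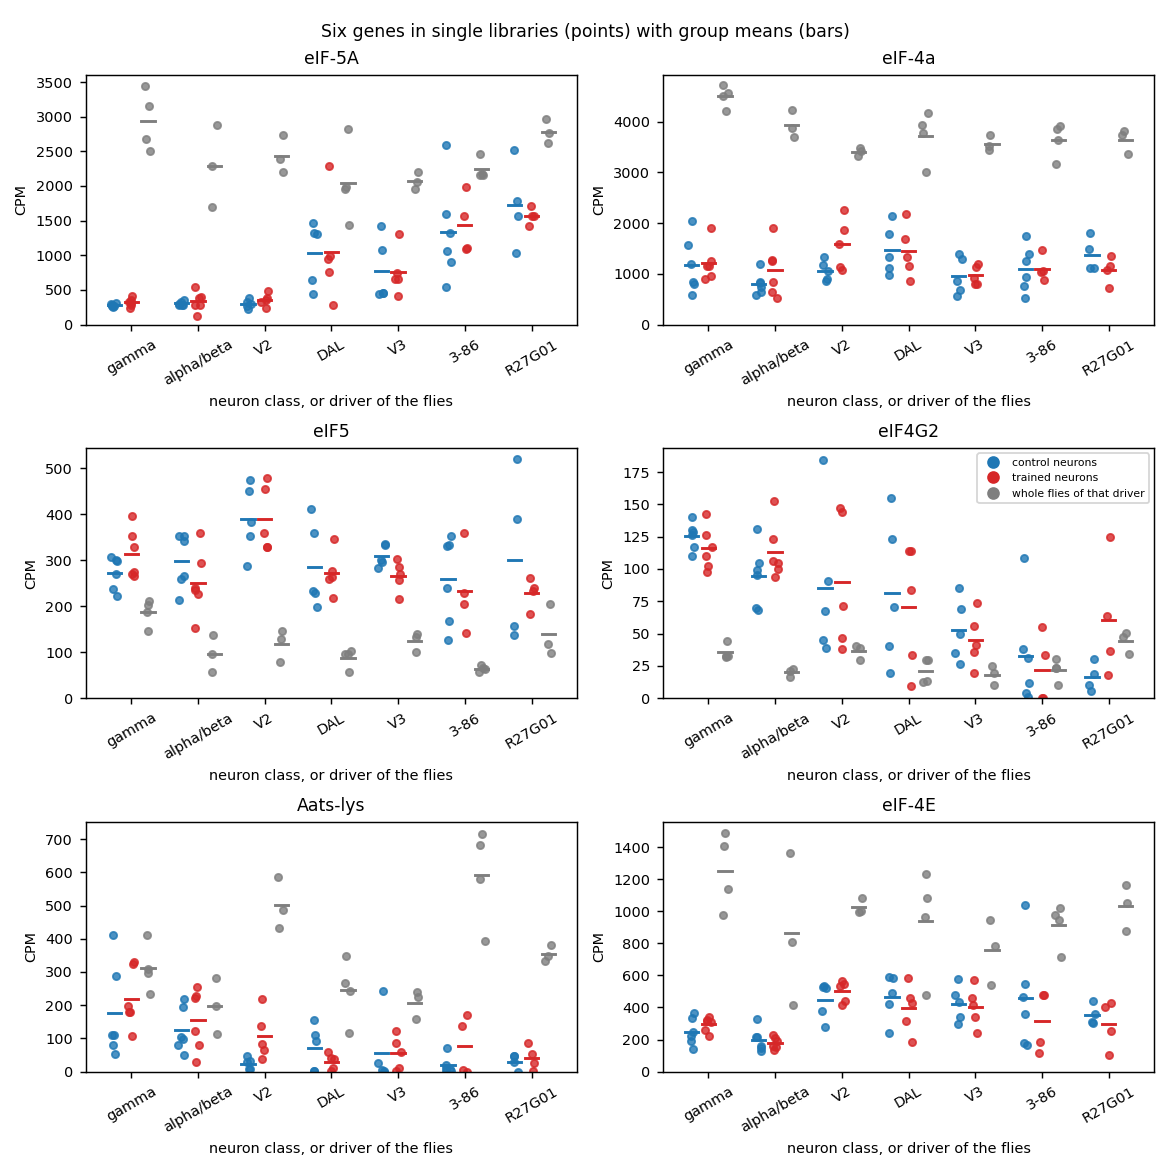
Level in CPM (linear axes) of eIF-5A, eIF-4a, eIF5, eIF4G2, Aats-lys and eIF-4E in each class, with 1 point per library, control neurons in blue, trained neurons in red, whole flies of that driver in grey, and bars at group means. eIF-4a in control neurons (528.1 to 2148 CPM) sits wholly below driver flies (3000 to 4720 CPM), eIF5 is higher in neurons, and eIF-5A climbs from gamma, alpha/beta and V2 to R27G01.

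The synthetases fell with few exceptions. Of the 15 cytosolic enzymes 13 fell and none rose. Aats-gln, the glutaminyl enzyme, lay at 0 to 51.9 CPM in control neurons (median 10.3) and 35.8 to 115.2 CPM in driver flies (median 83.4), with all 37 neuron libraries below the fly mean, a log2 difference of -2.89 ± 0.43 (adjusted p = 2.53e-08). Aats-asp, the aspartyl enzyme, lay at 0 to 199 CPM in neurons (median 17.1) and 74.1 to 210.5 CPM in flies (median 160.0), a log2 difference of -2.81 ± 0.30 (adjusted p = 1.32e-12). Only 1 neuron library, of DAL, exceeded the fly mean. Of the exonic bases of Aats-asp, 63.9% are shared with an antisense RNA gene in the later annotation, and whether reads were counted by strand is not given in the sources used here.

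Aats-lys, Aats-cys, Aats-gly, Aats-ala and Aats-arg followed, with log2 differences of -2.68 ± 0.39, -2.53 ± 0.50, -2.31 ± 0.43, -2.30 ± 0.49 and -1.82 ± 0.49. Aats-thr, Aats-ile, Aats-val, Aats-asn, Aats-his and Aats-glupro fell by 1.62, 1.52, 1.51, 1.34, 1.32 and 1.25 on the same scale. Aats-glupro encodes the fused enzyme for glutamate and proline. Single R27G01 control libraries moved several of these values by more than 1.5-fold, with the calls kept. Without library 1, Aats-cys stood at -3.65 and Aats-gln at -3.59, and without library 4 Aats-gly stood at -3.59. The cytosolic enzymes that did not pass were those for tyrosine and tryptophan: Aats-tyr differed by -0.73 ± 0.34 (adjusted p = 0.0560) and Aats-trp by -0.71 ± 0.44 (adjusted p = 0.156).

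The 6 enzymes assigned to mitochondria behaved less evenly. Aats-met fell, from a median of 9.96 CPM in flies (range 2.503 to 18.1) to 0.140 CPM in neurons (range 0 to 39.6), a log2 difference of -3.15 ± 0.58 (adjusted p = 2.71e-06), and Aats-ser fell by 1.43 ± 0.54 (adjusted p = 0.0170). Without R27G01 control library 2, the difference of Aats-met was -3.90. Aats-phe had 0 to 156 CPM in neurons (median 26.0) and 8.28 to 22.7 CPM in flies (median 14.6). It was above the fly mean in 25 of 37 neuron libraries, but its log2 difference of 0.93 ± 0.43 did not pass (adjusted p = 0.0521). Aats-leu, Aats-pro and Aats-ala-m gave -0.65 ± 0.42, -0.50 ± 0.38 and -0.17 ± 0.61, none of which passed.

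The rest of the pathway showed both directions. Of 9 cytosolic elongation and release factors 8 were tested, and 6 fell, with a median of -2.29: Ef1alpha48D, the main form of elongation factor 1 alpha, by 5.37 ± 0.19, and Ef2b by 3.50. The other form, Ef1alpha100E, rose by 3.62 ± 0.19, from 60.4 to 828 CPM. Of 22 genes that control translation 19 were tested, with a median of 0.48, and 7 rose, among them the RNA-binding larp at 2.86 and the cap-binding repressor 4EHP at 1.34. Thor, the fly 4E-BP that blocks eIF4E, fell by 1.13. Summed markers of several other tissues were also higher in driver flies, by their medians. Ovary and germline markers summed to 4097 to 52840 CPM there and to 0.154 to 375 CPM in control neurons, without overlap. Muscle markers summed to 1176 to 102054 and 10.4 to 1411 CPM and fat body markers to 6030 to 84562 and 12.2 to 71329 CPM, with ranges that overlapped. Of single markers tested, 11 of 12 for ovary and germline fell in neurons and 1 rose, and 4 of 7 for fat body fell and 2 rose. Testis markers went the other way as a sum, at 260 to 1281 CPM in control neurons and 9.96 to 48.4 CPM in driver flies. Only 3 of the 12 testis markers could be tested, of which 1 rose and 0 fell. Glial markers overlapped, at 147 to 1232 and 303 to 1163 CPM. The part of these tissues in the members' differences was not tested.

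Kenyon cells were then set against the 5 output neuron classes among control libraries, which asks whether intrinsic and output cells of the mushroom body use different amounts of the machinery. Of 44 members tested, 4 rose in Kenyon cells, against a background of 17.5% of all 9168 genes, and 3 fell, against 14.3%. These shares lie below the background. The median log2 difference was -0.21 over the members and 0.11 over all genes.

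The gene with the smallest p was eIF-5A, at 252 to 360.0 CPM in 12 Kenyon cell libraries (median 285) and 219 to 2594 CPM in 25 output neuron libraries (median 1035). The Kenyon cell values formed a narrow band at the bottom of the wide range of the output neurons, and the log2 difference was -1.53 ± 0.24 (adjusted p = 2.20e-06). eIF-4E was likewise lower, at 130 to 368 CPM (median 215) against 167 to 1038 CPM (median 432), a log2 difference of -0.83 ± 0.19 (adjusted p = 0.000649). eIF-2beta differed by -0.83 ± 0.33 (adjusted p = 0.0465), a call that was lost in 17 of the 37 fits that left out 1 library.

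On the higher side stood eIF4G2, at 68.2 to 141 CPM in Kenyon cells (median 113) and 0.612 to 184 CPM in output neurons (median 38.8), a log2 difference of 1.40 ± 0.37 (adjusted p = 0.00290). All 12 Kenyon cell libraries were above the mean of the output neurons. Aats-lys was at 51.2 to 411 CPM in Kenyon cells (median 108) and 0.280 to 244 CPM in output neurons (median 20.2), a log2 difference of 2.19 ± 0.59 (adjusted p = 0.00349), again with all 12 libraries above that mean. Aats-met and Aats-pro, both at low levels, differed by 3.36 ± 0.99 (adjusted p = 0.00694) and 2.56 ± 0.86 (adjusted p = 0.0181). Aats-met had medians of 2.94 CPM in Kenyon cells and 0 in output neurons. Its difference was 2.74 without alpha/beta control library 4, and 4.11, 4.38 and 4.10 without 3-86 control library 3, R27G01 control library 2 and V3 control library 5, and it passed in each.

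Set against V2 alone, the output class with the most cells per library, Kenyon cells differed in 0 of the 44 members by edgeR. The background of calls was 4.67% of all 9168 genes. At an unadjusted p under 0.05 there were 3 members, Aats-lys, eIF-4E and eIF3-S9. The log2 difference of eIF-5A was then 0.31, with an adjusted p of 0.824. Relative to the whole flies of the same drivers, 2 members rose, against a background of 6.1% of 10549 genes, and 2 fell, against 10.2%, and the calls of eIF4G2, Aats-pro and eIF-2beta were lost. In the list of elongation and release factors, 1 rose and 5 fell in Kenyon cells, Ef1alpha48D by 3.69. Of the genes that control translation 6 rose and 3 fell, Thor by 5.37. Markers of other cells moved too. All 6 fat body markers that could be tested fell, with a median of -5.30, as did 6 of 8 photoreceptor markers, with a median of -4.64, and 2 of 8 glial markers. All 8 neuron markers rose, and of 9 muscle markers 3 fell and 1 rose. The part of these in the members' differences was not tested.

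A test over all 7 classes at once called 6 of 44 members, against a background of 34.9% of all genes: eIF-5A (adjusted p = 2.71e-08), eIF3-S9 (0.00823), eIF4G2 (0.0198), Aats-asp (0.0250), eIF-4E (0.0250) and Aats-met (0.0356). For the other 38 members this test over all 7 classes detected no difference at this depth and spread. Among these 38, Aats-lys, Aats-pro, eIF-2beta and eIF-3p40 were called in comparisons of particular classes, given above for Kenyon cells and below for each class.

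eIF-5A set the classes apart most clearly. The 6 gamma control libraries had 269, 308, 298, 252, 275 and 265 CPM, the 6 of alpha/beta 325, 278.5, 293, 283, 287 and 360.0 CPM, and the 5 of V2 260.5, 294, 219, 381 and 330.0 CPM. These 3 classes overlapped throughout. V3 had 1078, 459, 446, 1421 and 460.4 CPM, and DAL 648, 1318, 1311, 1472 and 434 CPM. 3-86 had 1594, 541, 1319, 1060.0, 2594 and 896 CPM, and R27G01 1782, 2512, 1572 and 1035 CPM. Every library of these 4 classes was above every library of the first 3, and the 4 classes overlapped among themselves.

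In order of their means the classes ran from gamma (278 ± 21 CPM, SD, n = 6), V2 (297 ± 62, n = 5) and alpha/beta (304 ± 32, n = 6) to V3 (773 ± 452, n = 5), DAL (1037 ± 463, n = 5), 3-86 (1334 ± 714, n = 6) and R27G01 (1725 ± 612, n = 4). Neighbours in this order overlapped, with the exception of alpha/beta and V3. Driver flies averaged 2403 ± 473 CPM (SD, n = 24, with libraries marked A and B counted apart), and the 2 brains had 53.2 and 49.3 CPM, below every neuron library. In the test of each class against the mean of the others, eIF-5A was lower in gamma (-1.42 ± 0.32, adjusted p = 0.00105), alpha/beta (-1.13 ± 0.31, adjusted p = 0.00676) and V2 (-1.63 ± 0.35, adjusted p = 0.00371). It was higher in 3-86 (1.26 ± 0.26, adjusted p = 0.000364) and R27G01 (1.86 ± 0.29, adjusted p = 6.73e-06). These tests share their libraries.

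Fat body markers moved with eIF-5A. Of the 8 markers 7 had counts, and their summed level averaged 406 CPM in alpha/beta and 674 CPM in gamma. It averaged 6348 CPM in V2, 12144 CPM in V3, 29149 CPM in 3-86, 30845 CPM in DAL and 44124 CPM in R27G01. The brains had 506 CPM of these markers. V3 control libraries 2 and 3 held 3264 and 2758 CPM of them and 459 and 446 CPM of eIF-5A, where V2 libraries held 2605 to 12334 CPM of the markers and 219 to 381 CPM of eIF-5A. The part of fat body transcripts in the differences of eIF-5A was not tested, and cell number cannot be told apart from class.

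**Figure D4:**
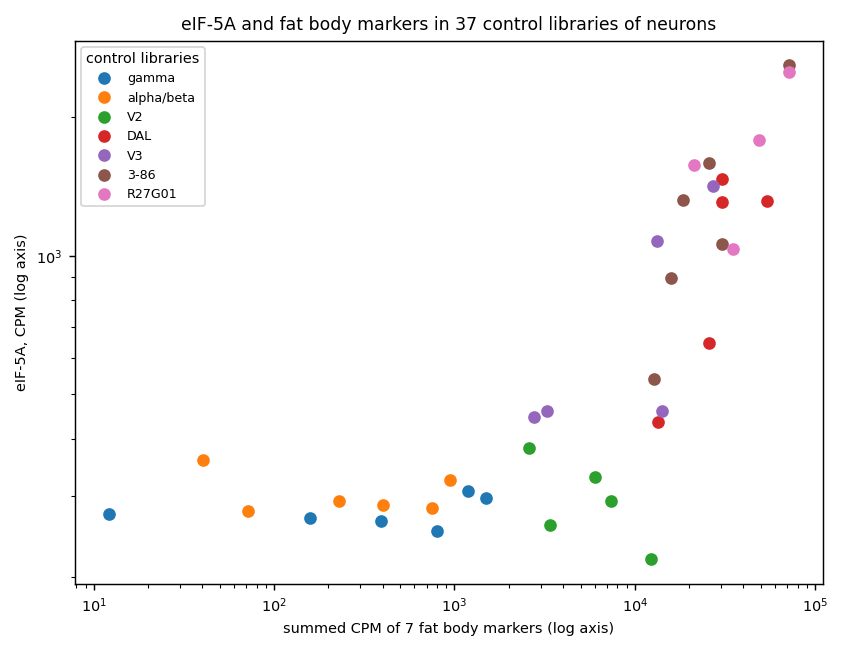
Level of eIF-5A against the summed level of 7 fat body markers, both in CPM on log axes, with 1 point for each of the 37 control neuron libraries, coloured by class. Kenyon cell libraries sit at the lower left, the 4-cell classes at the upper right, and V2 spans 2605 to 12334 CPM of the markers while eIF-5A stays at 219 to 381 CPM.

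The other class calls were fewer. For each class against the mean of the others, with the percentage of all genes called given first, gamma (16.5%) had 4 members called, alpha/beta (18.9%) 2, V2 (4.28%) 2, DAL (10.7%) 2, V3 (5.8%) 0, 3-86 (21.1%) 3 and R27G01 (16.9%) 3. For V3, 3 members had an unadjusted p under 0.05 by edgeR, which 16.4% of all genes reached, and DESeq2 called 0, against a background of 6.38%. As a share of the 44 members tested, these counts lay below the background in every class but V2, where they were close to it. Markers of other cells differed between classes as well. In 3-86, 7 of 8 photoreceptor, 6 of 9 muscle, 4 of 7 ovary and 6 of 6 fat body markers were higher and 5 of 8 neuron markers lower. In DAL, 7 photoreceptor and 4 fat body markers were higher and 2 neuron markers lower, and in R27G01 5 fat body markers were higher and 3 neuron and 2 photoreceptor markers lower. In gamma, 5 of 10 heat-shock genes and 5 neuron markers were higher, with 5 fat body and 4 photoreceptor markers lower, and in alpha/beta 7 neuron markers were higher and 6 fat body and 5 photoreceptor markers lower. The part of these in the members' calls was not tested.

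In gamma Kenyon cells, eIF4G2 stood at 110 to 141 CPM in all 6 control libraries, a narrow band, and was higher than in the other classes by 1.35 ± 0.45 (adjusted p = 0.0300). Aats-met and Aats-lys were higher by 3.38 ± 1.07 (adjusted p = 0.0222) and 1.97 ± 0.68 (adjusted p = 0.0417). R27G01 held the opposite end for eIF4G2, with 30.1, 10.4, 5.16 and 18.3 CPM and a log2 difference of -1.96 ± 0.70 (adjusted p = 0.0453). All 4 of its values were below the lowest of gamma. These eIF4G2 calls, and that of Aats-lys, were lost in 10, 17 and 18 of 37 fits that left out 1 library, and that of Aats-met without gamma control library 2 or 3. The difference of Aats-met in gamma was 4.00, 4.23 and 3.99 without 3-86 control library 3, R27G01 control library 2 and V3 control library 5. In alpha/beta Kenyon cells eIF-4E was lower by 0.80 ± 0.25 (adjusted p = 0.0187).

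In the output neuron classes, each again set against all the others, Kenyon cells included, eIF3-S9, the RNA-binding b subunit of eIF3, was low in V2 at 65.9 to 95.6 CPM, with a log2 difference of -1.16 ± 0.34 (adjusted p = 0.0395), a call lost in 9 of the 37 fits that left out 1 library. It was high in 3-86 at 77.7 to 366 CPM, with 0.86 ± 0.27 (adjusted p = 0.0173), although 2 of the 6 libraries of 3-86 lay within the range of V2, and the call was lost without 3-86 control library 1 or 4. Aats-asp split 2 classes: DAL had 73.6, 87.3, 29.0, 199 and 9.45 CPM and the 6 libraries of 3-86 had 0 to 10.4 CPM. Of the DAL libraries 4 were above every 3-86 library. Against the other classes it was higher in DAL by 2.15 ± 0.65 (adjusted p = 0.0242), lost without DAL control library 2 or 4, and lower in 3-86 by 2.53 ± 0.87 (adjusted p = 0.0301), lost without library 1, 2, 3 or 6. Without DAL control library 4 the difference of Aats-asp in DAL was 1.34.

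DAL also had higher eIF-3p40, at 53.3 to 280.0 CPM, by 1.19 ± 0.39 (adjusted p = 0.0382), a call lost without any one of DAL control libraries 1 to 4. When each was set against the other output classes alone, both DAL calls were lost, with adjusted p of 0.105 for Aats-asp and 0.0928 for eIF-3p40, against a background of 4.08% of 9168 genes. Of the 3 calls in 3-86, the lower Aats-asp was kept (-3.01, adjusted p = 0.0285), and those of eIF-5A (0.0680 as an adjusted p) and eIF3-S9 (0.0706) were lost, against a background of 9.06%. In R27G01 the call of eIF4G2 was lost (adjusted p = 0.143), against a background of 7.19%. Aats-pro, the mitochondrial prolyl enzyme, had no count in the 4 R27G01 control libraries nor in the 4 trained ones. The other 6 classes averaged 11.3 CPM, at least 123-fold above a floor of 3 counts over the R27G01 control group. The edgeR test called Aats-pro lower in R27G01 (adjusted p = 0.00802). This limit of 123-fold covers counting error only, not transcripts lost in harvest or amplification. Counts of 0 occurred in other classes too: Aats-pro had counts in 27 of 37 control neuron libraries and in 4 of 5 V2 control libraries.

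Training against control asked, within each class, whether aversive long-term memory training had changed the machinery by the time of harvest. No member passed in any class, and neither did any other gene: the percentage of all genes called was 0 in each of the 7 classes by edgeR. At an unadjusted p under 0.05, gamma and alpha/beta each had 2 members of 44, V2 had 3 of 44, DAL 1 of 40 and 3-86 1 of 39, while V3 had 0 of 40 and R27G01 0 of 29. Over all genes the share at that p was 5.61% for gamma, 2.74% for alpha/beta, 5.4% for V2, 1.96% for DAL, 2.76% for 3-86, 1.46% for V3 and 2.4% for R27G01. DESeq2 called 1 member in V2, against a background of 0.44% of 7281 genes. It called 0 in the other classes, where the background ran from 0% in alpha/beta to 0.667% in R27G01.

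The precision of these tests differed widely between classes. In gamma Kenyon cells all 44 log2 differences lay within 1 of 0, from -0.70 for Aats-ala-m to 0.62 for eIF2B-alpha, with a median SE of 0.27. The median SE was 0.53 in alpha/beta, 0.72 in V2, 0.91 in DAL, 1.04 in V3, 1.68 in 3-86 and 1.59 in R27G01. A log2 difference of 1, a doubling, was therefore smaller than the median SE in V3, 3-86 and R27G01.

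The member nearest to a call was Aats-lys in V2. Its control libraries had 27.4, 30.5, 46.5, 7.92 and 9.02 CPM and its trained libraries 82.4, 218, 136, 38.3 and 66.1 CPM. Of the trained libraries 4 were above all control libraries, and the fifth was above 4 of them. The log2 difference was 2.12 ± 0.56, with an adjusted p of 0.457 by edgeR and of 0.0491 by DESeq2. In V2 eIF5B and eIF-4a came next, at -0.94 ± 0.36 (adjusted p = 0.725) and 0.52 ± 0.21 (adjusted p = 0.741).

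In gamma the 3 members with the smallest p were eIF2B-alpha (0.62 ± 0.25), eIF2B-beta (0.50 ± 0.23) and eIF-3p40 (0.32 ± 0.19), all with an adjusted p of 0.796. eIF2B-alpha, a regulatory subunit through which phosphorylated eIF2 is sensed, had 14.8, 19.5, 16.5, 12.4, 11.1 and 4.59 CPM in control and 24.8, 23.9, 23.6, 20.3, 13.6 and 24.1 CPM in trained libraries. Of the trained libraries 5 were above every control library. In alpha/beta they were Aats-glupro (1.55 ± 0.53), eIF-2gamma (0.91 ± 0.37) and Aats-thr (0.60 ± 0.36), all at 0.999. Aats-glupro had 5.76 to 11.4 CPM in control and 8.56 to 45.6 CPM in trained libraries, of which 5 lay above all control libraries.

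In DAL the smallest p belonged to Aats-val (-4.95 ± 2.04), eIF-3p40 (-0.86 ± 0.55) and Aats-phe (-1.22 ± 0.83). In V3 it belonged to eIF3-S8 (0.93 ± 0.50), eIF-3p66 (-1.20 ± 0.65) and eIF3-S9 (-0.79 ± 0.54). In 3-86 the members were eIF4G (-1.23 ± 0.59), Aats-gly (-4.40 ± 2.49) and Aats-arg (-3.87 ± 2.53), and in R27G01 eIF2B-beta (3.56 ± 2.11), Aats-his (-2.84 ± 1.99) and eIF4AIII (-2.64 ± 2.04). The adjusted p was above 0.99 for each of these 12 genes of 4 classes. eIF-3p40 was among the first 3 in both gamma and DAL, with opposite signs.

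**Figure D5:**
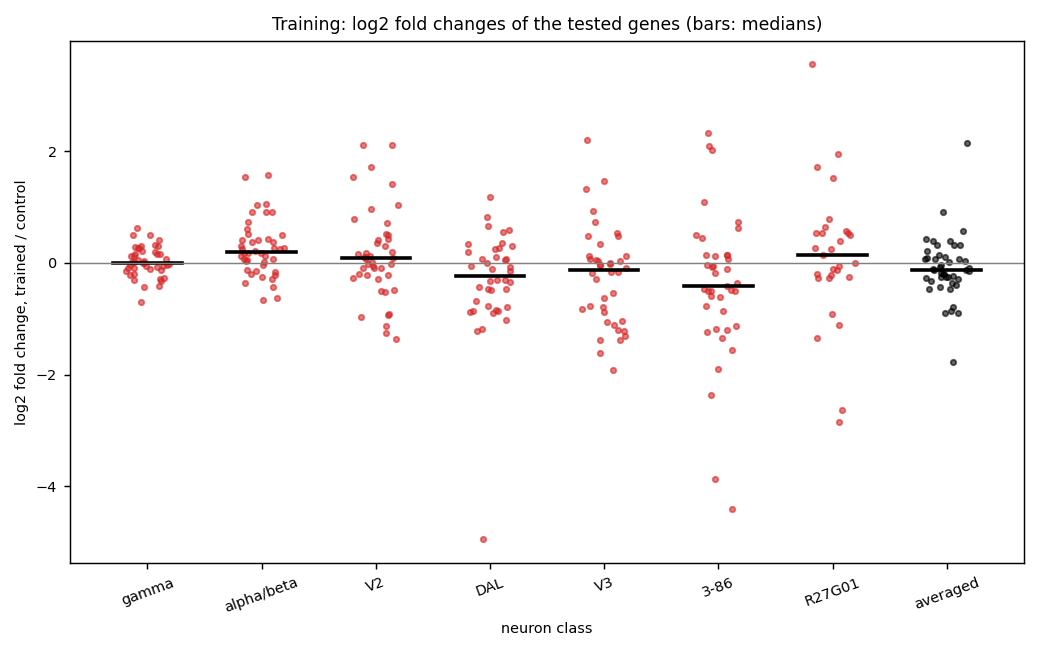
Log2 difference of trained against control libraries in each of the 7 classes, with 1 point per member tested (29 to 44 a class), bars at the medians and, in black, the average over the classes. The spread around 0 grows from gamma (-0.70 to 0.62) to 3-86 (-4.40 to 2.34) and R27G01 (-2.84 to 3.56), and no point passed the test.

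Averaged over the 7 classes, 0 of 45 members were called for training by edgeR, against a background of 0.884% of 9847 genes. The average could not be estimated for eIF4E-6 (SE 979) and Aats-pro (SE 211), so neither could be called. At an unadjusted p under 0.05, which 10.6% of all genes reached, there were 4: Aats-met (2.15 ± 0.72, adjusted p = 0.130), Aats-arg (-1.78 ± 0.63, adjusted p = 0.161), eIF4G (-0.31 ± 0.13, adjusted p = 0.324) and eIF4AIII (-0.79 ± 0.38, adjusted p = 0.410). DESeq2 called Aats-met, Aats-arg and Aats-ala-m, against a background of 12.1%. Without both 3-86 libraries of mixed runs, edgeR called Aats-val (-2.01, adjusted p = 0.0424), against 2.35% of 10119 genes. A difference between classes in the response to training was called for 0 of 45 members by edgeR, against a background of 1.24%, with 3 at an unadjusted p under 0.05, which 18.3% of all genes reached. DESeq2 called 1, Aats-ser, against a background of 4.09%.

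For Aats-arg, the arginyl enzyme, the values behind the average were uneven. Its 4 trained R27G01 libraries had 0.138, 0.0594, 0 and 0 CPM and its control libraries 18.8, 23.1, 46.9 and 0.120 CPM, whereas in gamma 6 control libraries had 2.78 to 22.0 CPM and 6 trained libraries 3.65 to 17.8 CPM. The first pair of groups met only at the lowest control library, and the second pair overlapped whole.

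Among control neurons, the spread between libraries of a group was smallest in Kenyon cells. Over members at 20 CPM or more, the median coefficient of variation among control libraries was 24.8% in alpha/beta, 37.4% in gamma, 56.9% in R27G01, 58.5% in V3, 62.9% in V2, 69.1% in DAL and 90.0% in 3-86. In whole flies it ran from 10.97% to 32.8%. eIF-2alpha, for example, had counts in some libraries of a class and none in others.

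The brains and the reporter flies entered no test, and their values are given as they stand. The 2 brain libraries are marked A and B under 1 number, as some whole-fly libraries are, and the labels do not say whether they are separate samples. They had 151 and 177 CPM of Aats-glupro, above the highest of all 72 neuron libraries (45.6 CPM), the driver flies (11.1 to 40.5 CPM) and the reporter flies (43.2 to 63.5 CPM). eIF3-S9 stood at 496 and 550 CPM in brains, above every neuron library (27.9 to 366 CPM). eIF2B-delta, the subunit of the exchange factor that eIF2B-alpha joins in sensing phosphorylated eIF2, stood at 57.0 and 74.8 CPM, with 46.6 CPM as the highest neuron library. eIF2B-gamma had no count in either brain, which allows up to 0.832 CPM over their 3.61 M counts, while the reporter flies had 45.9 to 50.5 CPM. As means of group means, driver flies had 10.7 CPM of it and control neurons 16.7 CPM, with counts in 33 of 37 neuron libraries. eIF-4a, at 880 and 882 CPM in brains, lay within the range of the neurons. At 2045 to 2120 CPM in reporter flies it lay below every driver fly library and within the upper end of the control neuron range.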

How the data were processed

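RNA-seq was given as counts per gene for 185 samples, which are 101 libraries because 84 were sequenced in 2 runs. The deposited counts are whole reads per gene made by the authors, and per the submitters' processing notes cutadapt, TopHat2, Bowtie, Bowtie2, HTSeq, DESeq2 1.4 and the genome build BDGP5 were used, with no role given. Per the labels' protocols, cDNA was amplified with the SMARTer kit, without molecular identifiers, so high counts of few cells can share molecules. Runs were summed, and 81 of the 84 pairs of runs agreed within sampling noise.

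CPM was computed over all 15682 genes. Tests used edgeR 4.0.16 in R 4.3.3 (TMM scaling, filterByExpr, robust quasi-likelihood F test, two-sided, Benjamini-Hochberg over all genes tested, threshold 0.05), tested on simulated data. Genes that rose or fell are those that passed, a call is a gene past that threshold, and each SE is the absolute log2 difference over the square root of F. DESeq2 1.42.0, other scaling, no filter, the whole-fly libraries marked A and B summed, and leaving out libraries were alternatives. Control neurons and driver flies were fitted as 14 groups weighted alike, control classes as 7 groups, and training in 1 fit a class and in 1 fit over all.

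The members follow the symbol rule. Named are the called members with the largest differences, or the 3 with the smallest p in training, and a fixed set around eIF4F, eIF-5A, eIF6, the eIF4E paralogs and Aats-glupro. The members and lists were chosen with earlier results of these data known. The genes next to members were looked up in the BDGP6 annotation, by symbol, for all 50 members. Of these, 7 shared 10% or more of their exonic bases with other genes. Besides eIF5 and Aats-asp they were eIF-3p40 (16.8%), Aats-glupro (16.6%), eIF-2gamma (16.0%), Aats-ser (13.95%) and eIF-2alpha (12.6%). The overlap of eIF-2gamma is with Su(var)3-9 on the same strand.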

Additional observations from a re-analysis of the deposited data

Results flagged for a closer look

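In 102 tests, each of 1 sum or 1 gene in 1 group of 4 to 10 libraries, 9 set a library far from the others of its group. Chance sets a library apart in about 1 in 20 such tests. The tests share libraries, and the sums contain the single genes, so they are not independent. The summed initiation factors stood at 3784 CPM in alpha/beta control library 4, where the others had 2463 to 2956 CPM, and at 8203 CPM in the whole-fly library 2 of the 3-86 driver, where the others had 9363 to 9463 CPM. The summed synthetases stood at 176 CPM in R27G01 control library 2, with 352 to 378 CPM in the others, and at 1299 CPM in the same 3-86 whole-fly library 2, with 1698 to 1759 CPM in the others. eIF-4a was at 1903 CPM in gamma trained library 6 and at 898 to 1249 CPM in the other 5. eIF-5A was at 2459 CPM in the whole-fly library 3 of 3-86 and at 2152 to 2177 CPM in the others.

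eIF-2alpha set a single library apart in 3 output neuron groups. It was at 20.7 CPM in V2 control library 4, with 0 to 1.63 CPM in the other 4. It was at 23.03 CPM in R27G01 control library 4, with 0 to 0.422 CPM in the other 3, and at 211 CPM in R27G01 trained library 1, with 0 to 0.594 CPM in the other 3.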

How the results depend on the processing

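In neurons against flies, members higher went from 2 to 1 with DESeq2, with its size factors and with the whole-fly A and B libraries summed, and leaving out single libraries gave 2 to 3 higher and 27 to 29 lower. Kenyon cells gave 7 higher with no filter (19.4%) and 2 higher relative to flies (6.1%). Against V2 alone they gave 0 higher (2.3%) and 0 lower (2.37%), and eIF-5A reversed to 0.31. Leaving out single libraries gave 4 to 5 higher and 2 to 4 lower. The test over 7 classes called 10 of 49 members with no filter (41.5%), and 5 to 9 with a library left out. Alpha/beta called 5 without both mixed 3-86 libraries (19.4%) and 4 with its pair as 2 libraries (21.8%). With a library left out it called 2 to 5, over 3 without V3 control library 5 or 3-86 control library 3. DAL called 4 with DESeq2, 0 against the other output classes alone and 0 to 3 with a library left out, 0 without DAL control library 2 or 4 and 1 without 3. V3 called 1 with no filter (7.67%), without the mixed libraries (5.99%) and against output classes alone (4.17%). With a library left out it called 0 to 2, above 0 without DAL control library 4, 3-86 control library 3 or R27G01 control library 2 or 4. 3-86 called 5 with DESeq2 size factors (22.6%), no filter (19.2%) or without the mixed libraries (20.2%), and 1 against output classes alone (9.06%). With a library left out it called 2 to 7. It called 5 or more without alpha/beta control library 1, 2 or 4, V3 or 3-86 control library 3 or any R27G01 control library. R27G01 called 5 with DESeq2 (23.7%) and 2 to 5 with a library left out, 5 without its library 1 or 4. Gamma called 2 to 4, with 2 without any of its libraries, alpha/beta library 1 to 5 or R27G01 library 2, and V2 called 1 to 2, with 1 without any of its libraries or alpha/beta library 2, 4 or 5. Training averaged over classes called 3 with DESeq2 (12.1%) and 1 without the mixed libraries (2.35%). With a library left out it called 0 to 1, 1 without V3 control library 5, 3-86 trained library 2 or R27G01 control library 2. DESeq2 called 1 in training in V2 (0.44%) and 1 in the class by training interaction (4.09%). In neurons against flies (43 fits for 61 libraries), the average and the interaction, no library of gamma, alpha/beta or 3-86 control was left out singly. Training within each class and the interaction called 0 in every fit that left out 1 library. The cause of these shifts was not tested.

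No paired analysis was possible because no label ties a control library to its trained partner in the pairs that the study's design mentions. With the ending of the library title as a block within each class, chosen after seeing the data and with a meaning the labels do not give, 0 members were called in each class, in the average and in the interaction, and 0 to 4 had an unadjusted p under 0.05. The limits are the 4 cells behind most output neuron libraries, the amplification, cell number moving with class, and the depth of 1.69 M counts in the shallowest neuron library, at which genes of a few CPM rest on few reads.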
